A study of Drosophila melanogaster with 4 samples.

Results

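Polycomb-enriched regions on the X chromosome of Drosophila melanogaster are described here, taken from 2 ChIP-seq libraries of wild-type embryos. They were chosen by position, as every listed region on X that did not touch either of 2 windows, 1990000 to 2060000 and 4280000 to 4435000. These windows were set aside for the polyhomeotic genes and for the T-box gene bi. Replicate 1 held 222 such regions of 1189 in its list, and replicate 2 held 262 of 1405.

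The embryos were of the Oregon-R strain, wild type, 14 to 16 h old and fixed with 1.8% formaldehyde. The series has 2 libraries made with an antibody to Polycomb (Pc) and 2 input libraries of genomic DNA, for which no values were analysed here. Whole embryos were used and their sex was not given, so a region cannot be assigned to a cell type, and the number of X copies per cell was unknown. Whether the replicates were separate embryo collections was not stated, so agreement between them may be technical. Read totals were not given and the depth behind each region was unknown. Positions are on FlyBase r5, and regions were named by position, with no gene assigned to them.

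Polycomb is the subunit of Polycomb repressive complex 1 that binds methylated histone H3 through its chromodomain. In flies the complex is recruited at Polycomb response elements, and its chromatin mark can spread from there over whole genes. It keeps developmental regulators, many of them transcription factors, silent in cells where they are not needed. X is the sex chromosome, present in a single copy in males, where a separate complex raises its transcription.

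Polycomb on X lay mostly in a small number of broad regions. At 10 kb or more, replicate 1 had 35 regions and replicate 2 had 37, which held 61.9% and 57.2% of the bases listed on X. Regions under 2 kb were the most numerous, with 98 and 132, but held 10.8% and 14.6% of the bases. The remaining 89 and 93 regions, from 2 kb to under 10 kb, held 27.3% and 28.2%. The median width was 2257 bases in replicate 1 and 1936 bases in replicate 2, and the widest regions measured 83.1 kb and 71.1 kb. In all, the regions covered 1.43 Mb (6.44%) and 1.38 Mb (6.21%) of X outside the windows.

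The authors' score, a positive number per region whose scale is not given, rose with width. It ran from 0.370 to 1.82 in replicate 1, with a median of 0.604, and from 0.444 to 1.82 in replicate 2, with a median of 0.692. From the narrowest to the broadest class, the median score went from 0.530 through 0.651 to 1.28 in replicate 1. In replicate 2 it went from 0.621 through 0.717 to 1.18. The median of narrow regions was thus higher in replicate 2 and that of broad regions higher in replicate 1. Only 37 of the 98 narrow regions of replicate 1 and 50 of the 132 of replicate 2 overlapped the other list. The narrow medians are therefore mostly over different places. Spearman's rho between width and score was 0.74 over the 222 regions and 0.54 over the 262, a description over regions of the same library.

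Regions lay close together, so those under 5 kb apart were joined into blocks, and each block was given the mean score of its regions weighted by width. This gave 101 blocks in replicate 1 and 135 in replicate 2. In each list 37 blocks held more than 1 region, and these took in 158 of the 222 regions (71.2%) and 164 of the 262 (62.6%). The other 64 and 98 blocks were single regions. Blocks of 10 kb or more numbered 32 and 37, and made up 88.6% and 86.9% of the block length. The region of highest score was also the widest in 29 of the 37 multi-region blocks of replicate 1 and in 27 of the 37 of replicate 2.

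The 12 widest replicate 1 blocks, from 50.0 to 114.7 kb, held 56.5% of the block length on X outside the windows. Replicate 2 covered between 62.3% and 99.8% of their region bases. Within the bounds of the replicate 1 block, the regions of highest score in the libraries overlapped in 11 of the 12. In blocks 2 and 4 a single region of 1 library spanned all or nearly all of the block, so overlap there was certain. Wide top regions made it likely in others, so the count says little about the position of the highest part. The blocks are numbered along X as in the map of regions around their centres.

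**Figure D1:**
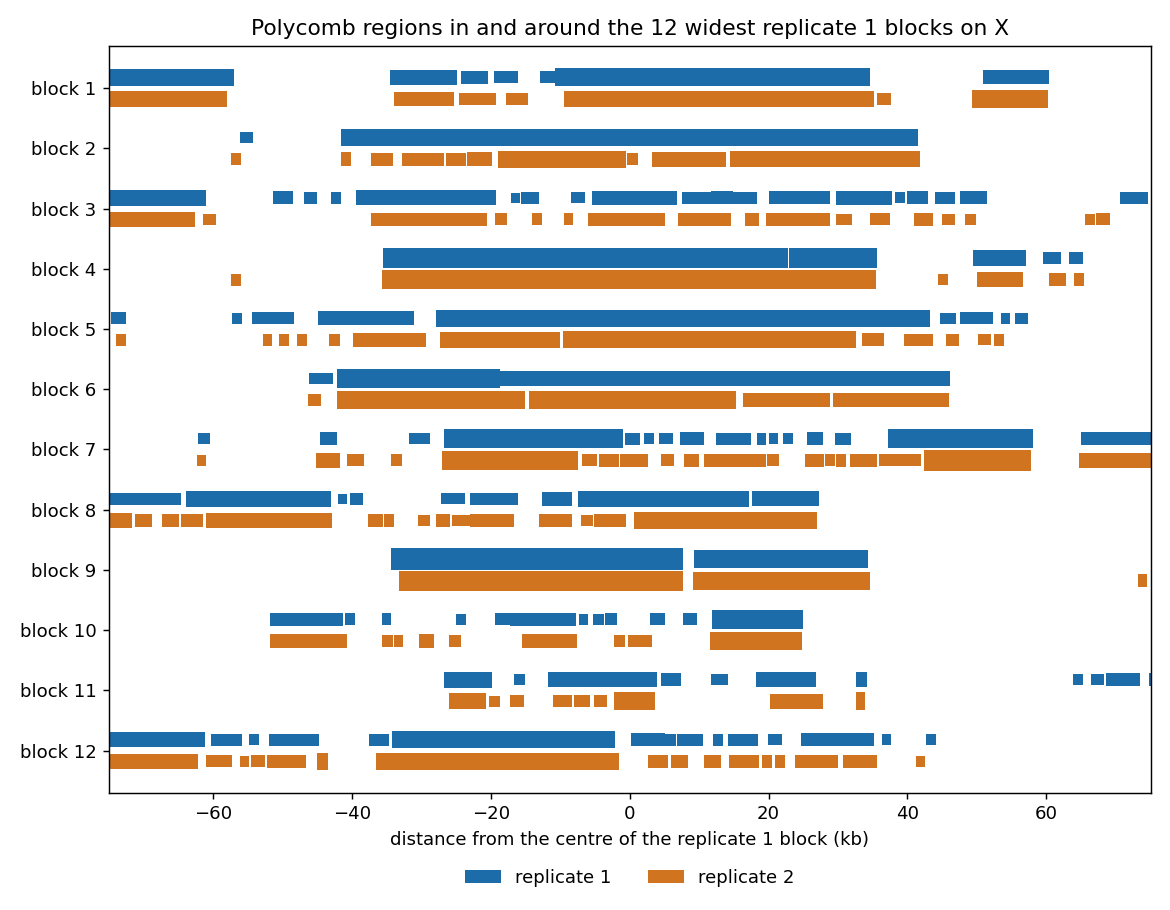
Regions of both libraries in and around the 12 widest replicate 1 blocks on X outside the windows. The axis is the distance in kb from the centre of the replicate 1 block. Each bar is 1 region and thicker bars have higher scores. Regions of the left-out windows are drawn where they fall in view. Blocks 4 and 9 are nearly solid in both libraries, while block 2 is 1 region in replicate 1 and 10 regions in replicate 2.

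Blocks 4 and 9 were solid in both libraries and had the highest scores of the 12. Block 4 lay at 8500774 to 8571964 in replicate 1, with 2 regions over 71.2 kb and a score of 1.67. In replicate 2 it lay at 8500747 to 8571813 as 1 region of 71.1 kb, with a score of 1.57. Its ends differed by 27 and 151 bases between the libraries. Block 9 ran from 17645899 to 17714611 (68.7 kb, score 1.68) and from 17647023 to 17714868 (67.8 kb, score 1.51), and both libraries divided it into 2 regions. Regions filled at least 97.8% of both blocks in either list.

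Block 5 was the widest on X outside the windows and lay close to block 4. Replicate 1 placed it at 8616969 to 8731650, with 9 regions over 114.7 kb and a score of 1.12. Replicate 2 placed it at 8621451 to 8728232, with 12 regions over 106.8 kb and a score of 1.07. Its highest region was 71.1 kb wide in replicate 1, with a score of 1.29. In replicate 2 the highest was 42.2 kb wide, with a score of 1.27. The highest regions of block 5 thus scored alike, although their widths differed. The other regions of the block ranged up to 13.8 kb in replicate 1 and 17.3 kb in replicate 2.

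Blocks 2 and 6 had nearly the same ends in both lists, although their division into regions differed. Block 2 ran from 5423005 to 5506106 as 1 region of 83.1 kb in replicate 1, with a score of 1.29. In replicate 2 it ran from 5423001 to 5506323 and was split into 10 regions with scores from 0.604 to 1.29. Joined, these had a score of 1.06, a weighted mean of 10 scores beside the single score of 1.29 in replicate 1. Whether the block as a whole was lower in replicate 2 was therefore not tested. The highest of the 10 was 18.4 kb wide. Replicate 1 gave 1 score for the whole block, so the highest parts cannot be compared. Block 6 ran from 9578037 to 9670298 (92.3 kb in 4 regions, score 1.18) and from 9577868 to 9670119 (92.3 kb in 5 regions, score 1.15).

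Block 3 was divided into many small regions in both libraries. It held 17 regions in replicate 1, from 7071378 to 7174245 (102.9 kb), and 13 in replicate 2, from 7085484 to 7172664 (87.2 kb). Its scores of 0.787 and 0.733 were the lowest of the 12 in both libraries, and replicate 2 covered 68.0% of its region bases. Block 10, from 18161240 to 18211261 (50.0 kb in 9 regions), was covered least, to 62.3%, and met 4 separate blocks of replicate 2. Even there the highest region was shared, from 18198087 to 18211261 in replicate 1 and from 18197782 to 18211036 in replicate 2, with a score of 1.45 in both.

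In 4 of the other 5 blocks the highest regions within the block overlapped, and in block 11 they did not. Blocks 1, 7, 8 and 12 began at 4447792, 16027779, 17260388 and 20547743, measured 69.1, 63.6, 54.4 and 75.2 kb in replicate 1, and were covered by replicate 2 to 90.8%, 83.5%, 94.3% and 86.1%. Block 7, with a score of 1.02 in replicate 1, was joined in replicate 2 to the next block, from 16096822 to 16117650, which scored 1.54 on its own in replicate 1. The joined replicate 2 block reached its highest region score, 1.72, outside block 7. Block 11 ran from 20403522 to 20457040 (53.5 kb, score 0.915). Its highest region lay at its left end in replicate 1, from 20403522 to 20410412 (score 1.13), and further right in replicate 2, from 20428006 to 20433917 (score 1.39).

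Block scores were similar in the libraries, most of all for broad blocks. Of all X blocks, 49 formed pairs in which 1 block of each list overlapped only the other. Their scores had a Spearman's rho of 0.88 and a Pearson's r of 0.92, a description over positions that share a chromosome and a library. By width in replicate 1, rho was 0.94 in the 22 broad pairs (10 kb or more), 0.74 in the 18 from 2 kb to under 10 kb and 0.75 in the 9 under 2 kb. The median overlap, as a share of the sequence spanned by both blocks of a pair, was 93.3% in the broad pairs, 60.4% in the middle class and 45.2% in the narrow one. Of the 98 block ends in these pairs, 44 lay within 500 bases of each other and 12 were 5 kb or more apart.

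**Figure D2:**
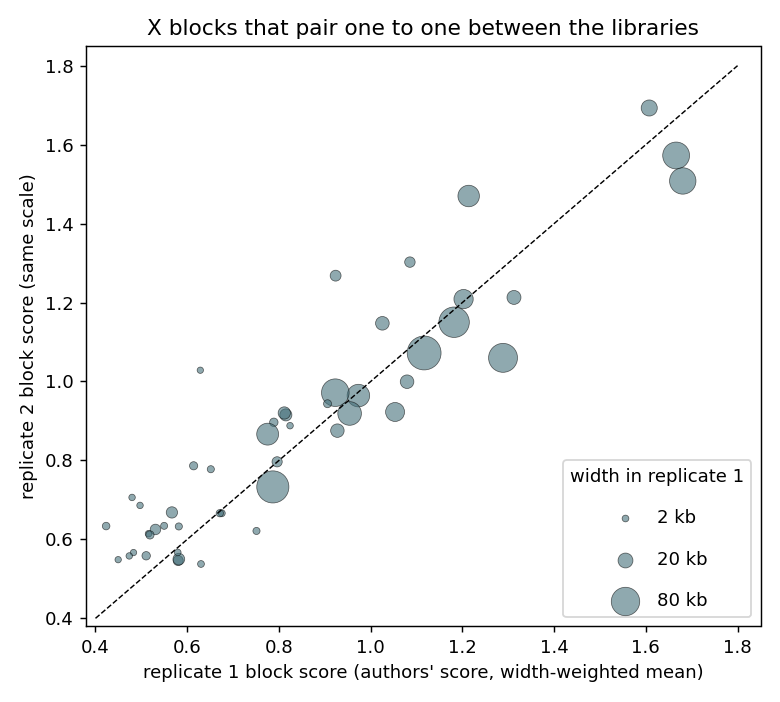
Replicate 2 block score against replicate 1 block score (authors' score, mean weighted by width) for the 49 X blocks that pair one to one, with circle area growing with block width and a dashed line of equality. Small circles lie mostly above the line, and the 3 blocks above 1.6 in replicate 1 are also the 3 highest in replicate 2.

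The 3 highest paired blocks were the same in both libraries. A 23.8 kb block from 3683726 to 3707531 scored 1.61 in replicate 1 and 1.69 in replicate 2. The latter was the highest there of all X blocks outside the windows. Blocks 4 and 9 were the others of the 3. Next in replicate 2 came a block from 467780 to 510099, near the left end of X, with scores of 1.21 and 1.47. A block of 17.4 kb from 2321105 to 2338454, 1 region in each library, scored 1.31 and 1.21. The blocks from 18197782 to 18211036 (1.45) and from 5887465 to 5912598 (1.38) ranked 5 and 6 in replicate 2, and each lay inside a wider replicate 1 block of lower mean score (0.936 and 1.10).

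Narrow paired blocks scored higher in replicate 2 and broad ones slightly lower. Replicate 2 was higher in 8 of 9 pairs under 2 kb, by a median of 0.0987, and in 13 of 18 pairs from 2 kb to under 10 kb, by a median of 0.0679. It was higher in 9 of 22 pairs of 10 kb or more, with a median difference of -0.0318. The same measure on 2L, 2R, 3L and 3R gave 27 of 29 (median 0.0935), 57 of 102 (0.0209) and 46 of 109 (-0.027), so the pattern was not limited to X.

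X regions were found in the other library about as often as regions anywhere in the lists. At least 1 base of a replicate 2 region overlapped 146 of the 222 replicate 1 regions (65.8%, exact Clopper-Pearson 95% interval 59.1 to 72.0%), against 64.7% for the whole list, of which X is a part. In the other direction the count was 171 of 262 (65.3%, 59.2 to 71.0%), against 60.7%. The lists shared 1.15 Mb on X, which was 80.3% of the bases in replicate 1 and 83.2% in replicate 2, and 69.1% of the bases covered by either. On the autosomal arms the last value ran from 65.1% on 3L to 77.3% on 3R, with X inside that range. These intervals hold counting error alone, and regions close to each other share their signal.

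By blocks, the broad part of the X pattern was shared and the narrow part largely was not. All 32 blocks of 10 kb or more in replicate 1 (interval 89.1 to 100%) and all 37 in replicate 2 (90.5 to 100%) met a block of the other list. From 2 kb to under 10 kb the counts were 19 of 25 and 15 of 19, and under 2 kb they were 10 of 44 (22.7%, 11.5 to 37.8%) and 13 of 79 (16.5%, 9.06 to 26.5%). On the autosomal arms 142 of 142 and 161 of 164 blocks of 10 kb or more were found. Under 2 kb the autosomal counts were 29 of 189 (15.3%) and 34 of 287 (11.8%), so the pattern was not limited to X. An overlap of 1 base is also easier to reach for a wide block than for a narrow one. Over all widths 61 of 101 blocks (60.4%) and 65 of 135 (48.1%) were found, against 60.3% and 49.3% over the whole lists. Taken as 1 set, the blocks of both libraries made 167 separate places on X, of which 57 were in both lists (34.1%), 40 in replicate 1 only and 70 in replicate 2 only.

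**Figure D3:**
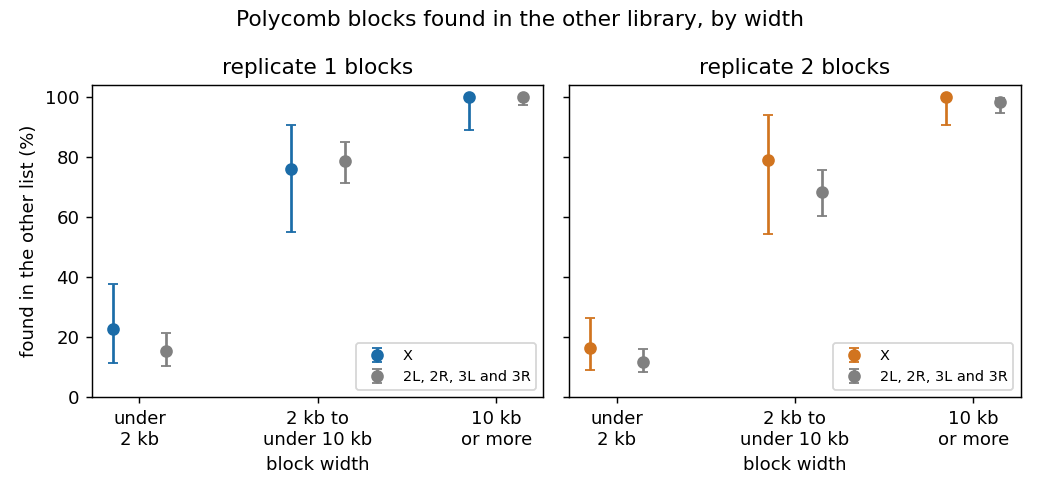
Share of blocks found in the other library, in percent, by block width, for X (coloured) and for the autosomal arms together (grey), with exact 95% binomial intervals; the left panel holds replicate 1 blocks and the right panel replicate 2 blocks. On X every block of 10 kb or more was found, against 22.7% and 16.5% of those under 2 kb, and the intervals of X and of the autosomal arms overlap in each class.

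Regions on X that appeared in 1 list were mostly narrow, and in replicate 1 many of them lay in blocks that met a block of replicate 2. A block met another if they overlapped by at least 1 base, which can be a small part of it. Such counts are not given here for the autosomal arms. Of the 76 single-list regions in replicate 1, 61 were under 2 kb and 34 lay inside a block that met one of replicate 2. Of the 91 in replicate 2, 82 were under 2 kb and 20 lay inside a block that met one of replicate 1. The nearest region of the other list was 50 kb or more away for 18 and 34 of them.

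Being in both lists did not go with a higher score among narrow blocks. In replicate 1 the 10 narrow blocks found in replicate 2 had a median score of 0.506, and the 34 others 0.545. In replicate 2 the 13 found had a median of 0.567 and the 66 others 0.664. The blocks found in both lists thus had the lower median in each library.

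A single narrow region had the highest block score of replicate 1 on X outside the windows. It ran from 21772783 to 21774405 (1.62 kb) near the right end of the X sequence and scored 1.77, and the nearest replicate 2 region was 524.7 kb away. The next highest replicate 1 region absent from replicate 2 scored 0.798. Among replicate 2 regions absent from replicate 1, the highest ran from 19755372 to 19756769 (1.40 kb, score 1.26), 22.9 kb from a replicate 1 region, followed by 10500512 to 10502620 and 12583630 to 12585049, both with 1.09. The widest region of either list that the other lacked, from 13886432 to 13893585 in replicate 1 (7.15 kb), scored 0.795.

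Most of X lay in long gaps between Polycomb regions. Within a list, regions were a median of 1.16 kb (replicate 1) and 1.60 kb (replicate 2) from their nearest neighbour. Gaps of 100 kb or more numbered 44 and 54, and together spanned 17.8 Mb (79.2% of X) and 16.6 Mb (74.1%). Leaving out the chromosome ends, the widest gap between regions was 1104 kb in replicate 1, from 2579330 to 3683725, where replicate 2 had 6 regions that lay in it or reached into it. In replicate 2 it was 1164 kb, from 12585050 to 13749222, where replicate 1 had 1 region.

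Of the stretches between regions that were free in both lists, the widest ran from 18690654 to 19427115 (736.5 kb). The next were 5971615 to 6573994 (602.4 kb), 13162080 to 13749222 (587.1 kb), 16616736 to 17199820 (583.1 kb) and 12585050 to 13160761 (575.7 kb). The third and the fifth were separated by a single replicate 1 region of 1.32 kb. The first region of X began at 398985 in replicate 1 and at 439088 in replicate 2. The last ended at 21774405 and at 21248083, which left 648.4 kb and 1175 kb of sequence to the end. The right end thus had the longest run without a region in replicate 2 and the second longest that was free in both lists.

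The middle of X had a long stretch with no single Polycomb region of 10 kb or more. Between such regions, none lay from 9670299 to 16032853 in replicate 1 (6363 kb) and none from 9670120 to 16032559 in replicate 2 (6362 kb). The widest such stretch on the autosomal arms was on 3L, with 5049 kb and 3790 kb. This order rested on taking regions one by one. With blocks of 10 kb or more in their place, the widest stretch on X was 2836 kb in both lists, against 3789 kb and 3779 kb on 3L and 3411 kb and 3412 kb on 2R, so X no longer had the widest one. The stretch, the count over blocks and the comparisons of small regions that follow were chosen after the values were seen, and no test was made.

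The choice of this stretch fixed that it has no broad region, and broad regions hold most of the bases on X and were all found in the other list. Coverage and the share found over all regions are therefore lower there by construction, and only regions under 10 kb are compared. These numbered 23 and 34 in the stretch (3.62 and 5.34 per Mb), against 10.2 and 11.1 per Mb to its left and 10.6 and 13.5 per Mb to its right. The other list had 9 of the 23 (39.1%, 19.7 to 61.5%) and 8 of the 34 (23.5%, 10.7 to 41.2%). To the left the shares were 58.3% and 61.9%, and to the right 67.6% and 70.9%.

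**Figure D4:**
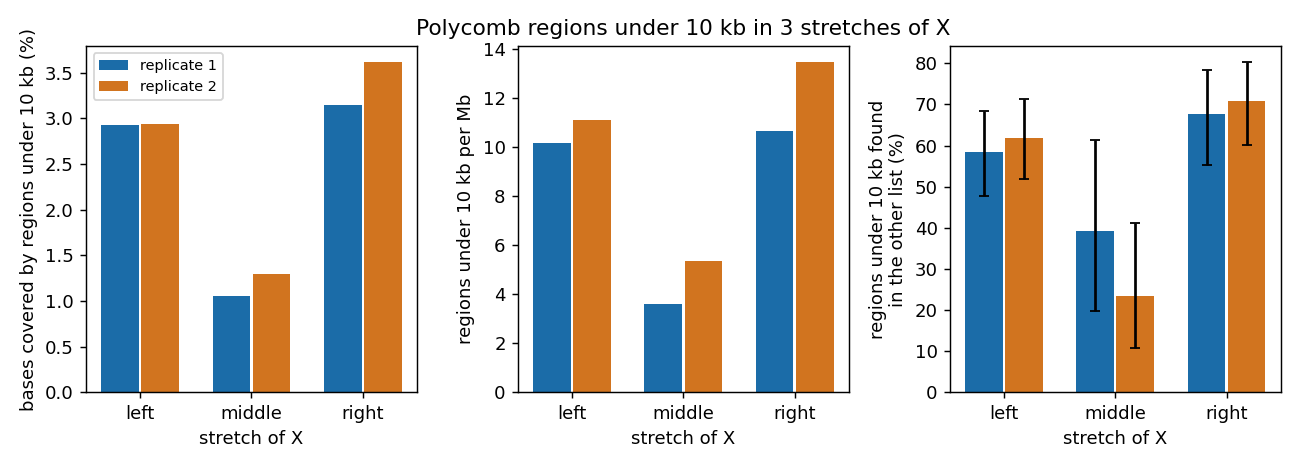
Bases covered by regions under 10 kb (percent), regions under 10 kb per Mb, and their share found in the other library (percent, with exact 95% binomial intervals), in the stretch of X chosen for having no region of 10 kb or more in both lists (middle) and in the parts to its left and right. The middle has 3.62 and 5.34 such regions per Mb against at least 10.2 on either side, where many are fragments of broad blocks.

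Many small regions beside the stretch lay inside broad blocks, 49 of 96 and 55 of 105 to the left and 50 of 68 and 58 of 86 to the right. Outside blocks of 10 kb or more, the stretch had 2.20 and 4.24 regions per Mb. The parts to its left had 4.98 and 5.29 and those to its right 2.82 and 4.38, so the difference was smaller and, on the right, slight in replicate 2. The shares found were then 4 of 14 and 4 of 27 in the stretch, 20 of 47 and 17 of 50 to the left, and 9 of 18 and 10 of 28 to the right. The intervals around these shares overlapped (8.39 to 58.1% and 4.19 to 33.7% in the stretch).

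Of the 16 and 30 blocks in this stretch, 6 and 7 were found in the other list. The highest of them spanned 12505895 to 12522283 in replicate 1 (16.4 kb, 3 regions, score 1.03) and 12506165 to 12520510 in replicate 2 (14.3 kb, 2 regions, score 1.15). Its highest region scored 1.35 and 1.53. Another spanned 15247671 to 15274779 in replicate 1 (27.1 kb, 5 regions, score 0.795). Replicate 2 had 2 blocks there, of 8.65 kb and 11.8 kb, with scores of 1.04 and 1.14. Both places are made of regions under 10 kb, so counting blocks in place of regions breaks the stretch up.

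Narrow Polycomb blocks scored higher on X than on any of the 4 large autosomal arms, and broad blocks did not. Under 2 kb the median block score on X was 0.540 in replicate 1 and 0.652 in replicate 2. The autosomal arms ran from 0.448 to 0.476 in replicate 1 and from 0.520 to 0.568 in replicate 2. Of the narrow X blocks, 34 of 44 and 66 of 79 were not found in the other library. Those found had medians of 0.506 and 0.567. In replicate 2 this lay inside the range of the arms, which was taken over all their narrow blocks. From 2 kb to under 10 kb X had 0.614 and 0.676, against 0.526 to 0.591 and 0.593 to 0.641. In both classes and both libraries X was above every other arm.

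**Figure D5:**
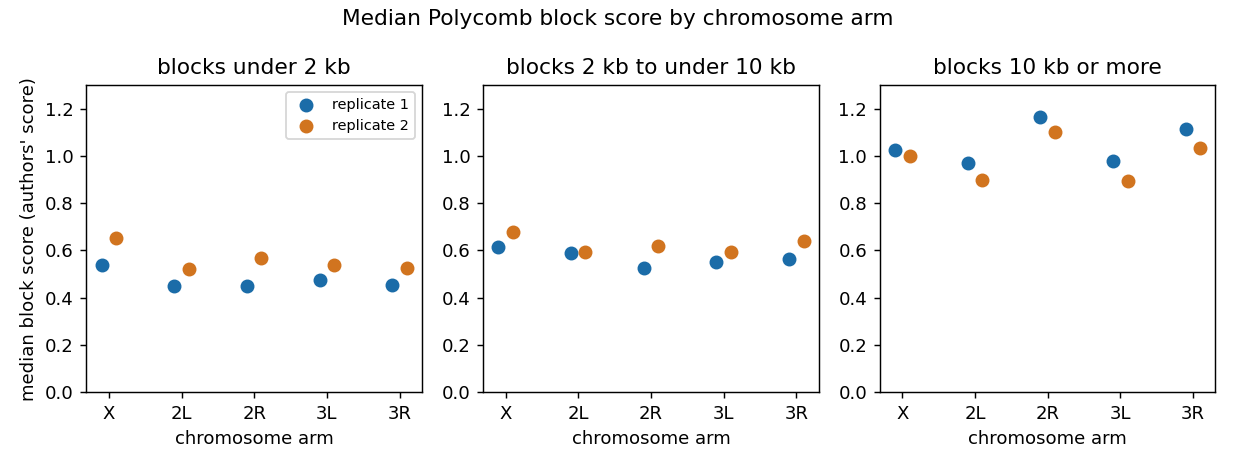
Median block score (authors' score) on X and on the 4 large autosomal arms for blocks under 2 kb, from 2 kb to under 10 kb and of 10 kb or more, with 1 point per library. X has the highest point of its library in the first and second panels (0.540 and 0.652, then 0.614 and 0.676) and an intermediate one in the third (1.02 and 0.999).

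For blocks of 10 kb or more X was in the middle of the arms, with 1.02 and 0.999 against 0.970 to 1.16 and 0.895 to 1.10. The median over X minus that over the 4 arms was -0.018 in replicate 1 and 0.0514 in replicate 2 for broad blocks, and 0.0785 and 0.116 for those under 2 kb. X was taken without its 2 windows, whose regions scored up to 2.56 in replicate 1 and 2.53 in replicate 2. The autosomal arms were taken whole, so the broad classes are of unlike sets. With only 2 libraries and no test over samples, these are values and not calls.

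The low end of the score scale was missing on X. The lowest X score was 0.370 in replicate 1 and 0.444 in replicate 2, while the autosomal arms went down to 0.256 and 0.232. Below the lowest X score lay 30 of 929 autosomal regions in replicate 1 and 71 of 1095 in replicate 2, all of them under 2 kb. Of the narrow X regions, 90 of 98 and 120 of 132 scored above the median of narrow autosomal regions.

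The windows left out held 11 regions of replicate 1 and 16 of replicate 2, with scores of up to 2.56 and 2.53 in the first window and 1.49 and 1.43 in the second. The nearest regions kept on the left of the first window scored 0.630 and 0.615, and those on its right 0.609 and 0.693. On the left of the second window they scored 0.541 and 0.550, and on its right, at the start of block 1, 0.991 and 0.842. In replicate 1 the last region before the second window, from 4273504 to 4276603, lay 3.40 kb from its edge and 2.74 kb from a region that touched the window, so the block it belongs to is cut short by the choice of members.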

How the data were processed

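Enriched regions of 2 Polycomb ChIP libraries were used as the authors deposited them, each library with a list of its own. The build is FlyBase r5, per the file headers. The submitters' processing notes name Bowtie 0.12.7. For the region caller, threshold and minimum width, nothing is given in the sources used here. The deposited score per region has no stated scale and was used to rank and describe regions within a list, and to compare paired blocks by rank and value. Medians of width classes were also set side by side between the lists.

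Members were filtered, joined and compared in Python 3.11.15 with scipy 1.17.1, numpy 2.4.6 and matplotlib 3.10.9. Regions under 5 kb apart were joined after the windows had been removed. Regions inside the windows still counted as overlap, as neighbours and as ends of gaps. Joining and overlap were tested on simulated data: 20 of 20 lists made from the widths of the 222 replicate 1 regions were recovered exactly. Intervals are exact at 95%. Tests over regions were not made, since regions of 1 library are not replicates. Depth is unknown, which limits what a missing region shows.

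Named were the 12 widest replicate 1 blocks, the 6 blocks of highest score in each list, the 5 widest stretches without a region, and the 5 widest and 5 highest single-list regions of each list, the leading ones in full, and the regions next to the windows. Members, lists and measures were chosen with earlier results of these data known. The source name of each ChIP sample carries the experiment number found in the name of the other sample's file. The recorded link was used, and an exchange would swap only the replicate names. Alternatives covered overlap, score limit, joining distance, block score, width class and the windows. A listing of genes in the named blocks was planned and not made, since the gene table at hand is of another assembly.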

Additional observations from a re-analysis of the deposited data

How the results depend on the processing

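Of 63 recalculations with other settings, 33 stayed and 30 moved. Of 18 added after the values were seen, 12 stayed and 6 moved. A change of sign was counted as moved. A share stayed if inside its counting interval, a count of blocks if within 1.5 times, and a distance or score difference if within 1 SD between the libraries; the Jaccard index and the rank correlation, with 1 value each and no such spread, were counted as moved at any change, however small. The share of X regions found fell to 45.5% and 38.5% (replicates 1 and 2) when the overlap had to reach 50% of each region, to 58.1% and 58.0% for 50% of the shorter one, and in replicate 2 to 58.5% with regions under 1 kb apart merged. The share of blocks found fell to 42.6% and 31.9% for 50% of both blocks, and in replicate 2 was 58.5% when joined under 1 kb. Joining under 1 kb gave 160 and 205 blocks, and under 50 kb 60 and 75. The Jaccard index was 72.0% for the upper 50% by score, 70.1% with merging and 70.5% for all X regions. Spearman's rank correlation between block scores was 0.75 by median region score, 0.88 by the highest, 0.86, 0.87 and 0.86 when joined under 1, 10 and 50 kb, and 0.94 for blocks of 10 kb or more. The X minus autosomal median score, 0.0857 and 0.143 over all blocks, was -0.018 and 0.0514 for blocks of 10 kb or more. In replicate 1 it was 0.0288 for blocks in both lists and 0.0284 against 2L alone, and in replicate 2 it was 0.102 for regions under 2 kb one by one. The median nearest distance rose to 4.06 and 5.21 kb with merging and to 1.63 and 2.42 kb in the upper 50%. The widest empty stretch was 1367 and 2024 kb for regions of 2 kb or more. The stretch without broad regions was 2836 kb in both lists when blocks of 10 kb or more were counted, and in replicate 2 it was 5577 kb with a limit of 8 kb and 7649 kb with 20 kb. For values moved by the score limit, the joining or the width class, fewer or other units enter by construction. No paired analysis was possible because the files used here hold values of the ChIP libraries alone, so ChIP and input of 1 number could not be set together, and leaving out a library leaves no agreement to measure. Depth being unknown, a region missing from a list may be unenriched or under the threshold.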

Other observations

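Joining regions under 50 kb apart gave 60 groups on X in replicate 1 and 75 in replicate 2, of which 39 and 38 met a group of the other list. The share over the whole lists is not given at this joining distance, so these counts do not set X apart. The windows were removed before joining, so the lengths and their order hold for X outside them. The 3 longest groups overlapped between the libraries. The longest ran from 8500774 to 8731650 in replicate 1 (230.9 kb, 14 regions) and from 8478993 to 8728232 in replicate 2 (249.2 kb, 18 regions), and takes in blocks 4 and 5. The second ran from 20403522 to 20629420 (225.9 kb, 26 regions) and from 20404274 to 20627911 (223.6 kb, 25 regions), with blocks 11 and 12 inside. The third ran from 7004002 to 7203850 (199.8 kb, 24 regions) and from 7004345 to 7210958 (206.6 kb, 24 regions), around block 3. These 3 groups held 64 of the 222 replicate 1 regions and 67 of the 262 replicate 2 regions. Their regions filled 80.7%, 64.2% and 68.0% of the sequence in replicate 1, and 69.3%, 55.4% and 57.3% in replicate 2. The order differed further down: a group from 7398386 to 7596398 (198.0 kb) was the next longest in replicate 1, and its counterpart from 7405998 to 7542773 (136.8 kb) came after another group in replicate 2. The sixth longest lay in different places, from 398985 to 514677 in replicate 1 and from 18419138 to 18549904 in replicate 2.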
